A study of Mus musculus with 12 samples.

Results

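Splicing factors and spliceosome proteins were read in the liver of mice exposed to secondhand smoke (SHS) by 282 of the 45037 probe sets of a whole-genome Affymetrix mouse array, a chip that reads a transcript, or a few related ones, through a set of short probes. These probe sets named 100 of the 18193 genes that were read by a probe set of their own. A gene was taken in by its symbol when the symbol began with Srsf, Hnrnp, Sf3a, Sf3b, Snrp, Prpf or Rbm and, except for Hnrnp and Snrp, went on with a digit, or when it was Wbp11, U2af1, U2af2, Tra2a or Tra2b. The rule itself uses no signal, but it was chosen with earlier results of these data known. Another 26 probe sets named such a gene together with a second gene, among them those of Rbm3 and Rbm10 and all but 1 of Snrpn, and were set aside. The 100 genes comprised 12 of the SR proteins and their Tra2 relatives (44 probe sets), 19 hnRNP genes (58), 11 genes of the SF3 and U2AF complexes (32), 9 Snrp genes (18), 12 Prpf genes (32), 36 Rbm genes (95) and Wbp11 (3). Of the Rbm symbols, Rbm3os and Rbm46os are opposite-strand transcripts that the spelling of the symbol brought in. Srsf7, an SR gene that the study lists as lower in exposed mice, is not among the 100 genes, as no probe set named it alone.

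Splicing removes introns from newly made RNA and is carried out by the spliceosome, which is assembled on each intron from small nuclear ribonucleoproteins. The Snrp genes encode proteins of these particles, and the SF3 proteins belong to the particle that recognises the branch point. U2AF binds the end of the intron, and many but not all of the Prpf proteins act in the later rearrangements. SR proteins mostly favour and hnRNPs often disfavour the use of nearby exons, and the transcripts of many of these regulators are themselves alternatively spliced. Rbm is a naming series for proteins with an RNA recognition motif, and not every member of it acts in splicing.

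The RNA came from whole liver of male C57BL/6 mice that were adult when the exposure began. Mice breathed SHS for 4 months and were killed at its end (SHS4m, replicates 66 to 69) or, for the SHS4m+1m recovery group (replicates 70 to 73), 1 month later, after breathing clean air again, and controls were sham-exposed to filtered air (control, replicates 1 to 4). The study kept control subgroups with and without the recovery month, and the labels do not say which of them the 4 control arrays represent, so age and exposure cannot be told apart fully. Each array was taken as 1 mouse, and the p-values measure the spread between these arrays. In whole liver, fewer cells of a type and less RNA per cell cannot be told apart.

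Signals are the deposited intensities on a linear scale. Values below a floor of 32 were raised to it before the log2 was taken, and all differences below are differences in mean log2 signal from a limma fit of the 3 groups. A probe set was called when its Benjamini-Hochberg adjusted p over all probe sets was under 0.05. Levels of different probe sets are not compared as amounts of RNA, since each probe set has its own affinity. Liver markers bore out the tissue label, with a mean log2 signal of albumin (Alb) of 15.61 in SHS4m mice, 15.71 in recovery mice and 15.92 in controls, and none of the 7 hepatocyte markers was called in any comparison. Of the 9 marker lists, those for macrophages, lymphocytes and dividing cells held calls against the controls. In SHS4m mice the scavenger receptor Marco was higher (difference 1.90), and the Kupffer cell lectin Clec4f (-0.51) and the leukocyte antigen Ptprc (-0.73) were lower. The log2 of the summed signal of the 7 macrophage markers was 13.63 to 13.94 in SHS4m mice, 13.71 to 14.15 in recovery mice and 13.93 to 14.21 in controls, and that of the 6 lymphocyte markers read was 9.53 to 9.73, 10.07 to 10.15 and 9.69 to 10.53 in the same order. The neutrophil marker Camp was at the floor throughout. The cell cycle kinase Cdk1 was higher by 1.31 in SHS4m mice and by 1.73 in recovery mice, with the log2 of the sum of the 4 dividing cell markers read at 7.57 to 8.19, 7.73 to 8.25 and 7.38 to 7.84 in SHS4m mice, recovery mice and controls. The ratio of the 3-prime to the 5-prime probe set of actin, a sign of RNA quality, was 8.82 for recovery replicate 72, with 3.24 to 4.64 for all others. The part of these differences in the results below was not tested, apart from the fits without single arrays.

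The brightest probe set of a gene lay above the floor on all 12 arrays for 91 of the 100 genes. Among the 282 probe sets, 211 were above the floor on every array, 67 were at it on some arrays and 4 (1.42%) were at it throughout, beside 7.2% of all probe sets. The brightest probe sets of the families were those of Srsf2 with a mean log2 signal of 11.85, Hnrnpab with 14.52, U2af1 with 11.99, Snrpe with 13.28, Prpf19 with 13.36 and Rbm7 with 12.54. None of these 6 was called in any comparison, with differences in SHS4m mice against controls of 0.03, -0.21, -0.05, -0.03, 0.07 and -0.16, in the same order.

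At the end of the exposure, more probe sets of splicing genes were called lower than higher. Of the 282 probe sets, 31 were called in SHS4m mice against controls, 8 higher (2.84%) and 23 lower (8.16%). Over all probe sets the shares were 2.52% higher and 2.87% lower. With each gene read once, by its brightest probe set, 12 of 100 genes were called, 4 higher and 8 lower, where 3.73% of all genes were called higher and 3.74% lower. The share called lower stood above that of the array, and the share called higher was near it. The median difference over the 100 genes was -0.10, beside -0.01 over all genes. With every array centred on its own median signal, 16 probe sets were called, 5 higher (1.77%) and 11 lower (3.9%), where 2.49% of all probe sets were called higher and 1.6% lower. By the brightest probe set centring left 2 of the 100 genes called in each direction, where 3.48% of all genes were called higher and 1.98% lower, so that the share of genes called lower was at that of the array. The median over the 100 genes was then -0.02, beside 0.07 over all genes. Without control replicate 3, 17 probe sets were called. By the brightest probe set the count was 5 to 7 without any 1 of SHS4m replicates 66, 67 and 68 or control replicates 1, 3 and 4. Centring ended the SHS4m calls of Rbm42 1415739_at, Hnrnph1 1415872_at, Snrpd3 1422884_at, Hnrnpu 1423050_s_at, Hnrnpu 1423051_at, Hnrnpd 1425142_a_at, Hnrnpf 1437099_x_at, Sf3b1 1440818_s_at, Hnrnpk 1448176_a_at, Snrpg 1448357_at, Sf3b1 1449138_at, Snrpb2 1452422_a_at, Rbm6 1452466_a_at, Prpf6 1454789_x_at and Hnrnpc 1460240_a_at (adjusted p = 0.0507 to 0.314). With only the 8 arrays of the SHS4m and control groups fitted, 22 of the 31 calls were kept and 9 were lost, those of Rbm42 1415739_at, Sf3b3 1415985_at, Hnrnpu 1423051_at, Hnrnpd 1425142_a_at, Hnrnpf 1437099_x_at, Rbm39 1438420_at, Sf3b1 1440818_s_at, Sf3b1 1449138_at and Rbm6 1452466_a_at (adjusted p = 0.0539 to 0.0944).

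The changes were mostly under 2-fold. The study's threshold was an unadjusted p under 0.05 with a 2-fold change. By it 8 probe sets passed in SHS4m mice, 4 higher and 4 lower (1.04% and 1.43% over all probe sets). None of the 8 was the brightest of its gene. Over the whole array 1114 probe sets passed here, 468 higher and 646 lower, and their number differs from that of the study's own list. No brightest probe set of the 100 genes differed 2-fold in any of the 3 comparisons, while 3.01% of all genes did so in SHS4m mice against controls.

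**Figure D1:**
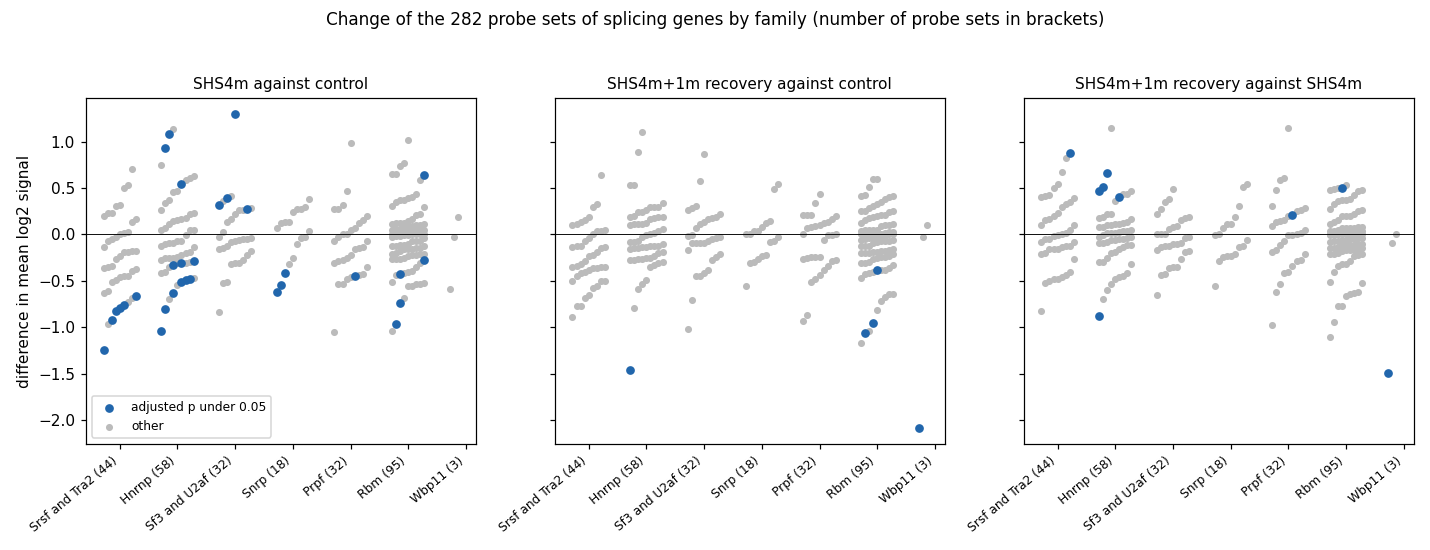
Difference in mean log2 signal (y axis) of each of the 282 probe sets of splicing genes, by family (x axis, number of probe sets in brackets), in the 3 comparisons. Blue points were called at an adjusted p under 0.05, 31 in SHS4m mice against controls, 5 in recovery mice against controls and 9 in recovery mice against SHS4m mice, and grey points were not.

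Among the SR proteins and their Tra2 relatives, which bind exons and recruit the splicing machinery to them, 6 of 44 probe sets were called in SHS4m mice. All 6 were lower (13.6%), beside 2.87% of all probe sets called lower. They belonged to Srsf1, Srsf6 and Srsf10. The median difference over the 44 was -0.25.

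Srsf1, the best studied SR protein, was read by 7 probe sets, and all 7 had lower means in SHS4m mice, with differences from -0.97 to -0.50. Its brightest probe set (1428099_a_at) read 2343, 2238, 2031 and 2524 on the SHS4m arrays, 3531, 3221, 2594 and 2858 on the recovery arrays and 3285, 4136, 4981 and 3614 on the control arrays. Every SHS4m array lay below every control array, and the recovery arrays overlapped the controls. SHS4m mice differed by -0.80 (1.74-fold lower, standard error 0.14, adjusted p = 0.0111) and recovery mice by -0.38 (standard error 0.14, adjusted p = 0.238). Probe sets 1434972_x_at, 1453722_s_at and 1430982_at were called too, with differences of -0.92, -0.76 and -0.66 (adjusted p = 0.0129, 0.0117 and 0.0212). Leaving out any 1 of control replicates 2 and 3 ended the call of 1430982_at in SHS4m mice (adjusted p up to 0.057). The remaining 3 were not called. These 7 probe sets read transcripts of 1 gene and are not 7 independent measurements.

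Srsf10, an SR protein known as a repressor of splicing when it is dephosphorylated, gave the largest fall among the 31 calls in SHS4m mice. Probe set 1449121_at read 242, 247, 279 and 263 on the SHS4m arrays, 526, 389, 395 and 347 on the recovery arrays and 455, 682, 780.1 and 577 on the control arrays. All 4 SHS4m arrays were below all recovery and control arrays. The difference in SHS4m mice was -1.25 (2.37-fold lower, standard error 0.17, adjusted p = 0.00366), and in recovery mice it was -0.58 (standard error 0.17, adjusted p = 0.141). Its brightest probe set (1418527_a_at) read 698, 653, 573 and 612 on the SHS4m arrays, 578, 789.6, 389.8 and 575 on the recovery arrays and 909, 683, 690.2 and 970.1 on the control arrays, and its groups overlapped (difference -0.35, adjusted p = 0.447). The within-array difference of these 2 probe sets was not called.

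Srsf6, another SR protein, was lower in SHS4m mice by probe set 1448454_at and was not called in recovery mice against controls (0.05, adjusted p = 0.996). It read 849, 800.0, 679 and 655 on the SHS4m arrays, 1645, 1485, 1264 and 1103 on the recovery arrays and 1269, 1323, 1427 and 1254 on the control arrays. The SHS4m arrays lay apart from both other groups, which overlapped each other. The difference was -0.83 (1.78-fold lower, standard error 0.13, adjusted p = 0.00655) in SHS4m mice against controls, and 0.87 (1.83-fold higher, standard error 0.13, adjusted p = 0.0089) in recovery mice against SHS4m mice. The second of these calls was lost with only the 8 arrays of those groups fitted (adjusted p = 0.0515). By contrast 1416721_s_at, the brightest of the gene, had differences of -0.18 (adjusted p = 0.222) and 0.29 (adjusted p = 0.0785) in the same comparisons, and 1447898_s_at, nearly as bright, one of 0.24 (adjusted p = 0.315) in SHS4m mice.

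Srsf3, a small SR protein that also acts in RNA export, had no called probe set among its 6. Its brightest (1416150_a_at) read 1914, 2437, 2615 and 1667 on the SHS4m arrays, 1763, 1697, 1136 and 1473 on the recovery arrays and 1474, 1569.9, 2739 and 1334 on the control arrays. Its 1416151_at read 313, 282, 403 and 247 on the SHS4m arrays, 297, 219.9, 216 and 302 on the recovery arrays and 357, 434, 653 and 362 on the control arrays. On both, the array of control replicate 3 was the highest of its group, and the SHS4m arrays overlapped the controls. Within arrays the 2 moved apart in SHS4m mice, with a difference between their changes of -0.83 (adjusted p over all pairs = 0.0442). This pair was no longer called without any 1 of SHS4m replicates 66, 67, 68 and 69, recovery replicates 70 and 73 or control replicates 1, 2, 3 and 4 (adjusted p up to 0.099).

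Tra2a and Tra2b, SR-related proteins that bind purine-rich exon enhancers, were not called by any of their 6 and 5 probe sets. The brightest of Tra2a (1454725_at) read 319.8, 299, 434 and 384 on the SHS4m arrays, 377, 445, 257 and 317 on the recovery arrays and 499, 557, 739 and 446 on the control arrays. The controls lay above both exposed groups, with differences of -0.63 in SHS4m mice (adjusted p = 0.128) and -0.69 in recovery mice (adjusted p = 0.151). The other 5 probe sets of Tra2a had a mean log2 signal of at most 5.56, near the floor of 5, and differences from -0.73 to 0.50 in SHS4m mice. The brightest of Tra2b (1427432_a_at) read 1515, 1342, 1671 and 1518 on the SHS4m arrays, 1953, 1502, 1609 and 1438 on the recovery arrays and 1615, 2209.6, 2844 and 1747 on the control arrays. These ranges overlapped, with differences of -0.45 and -0.35 (adjusted p = 0.206 and 0.439). The other 4 had differences from -0.37 to 0.20 in SHS4m mice.

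**Figure D2:**
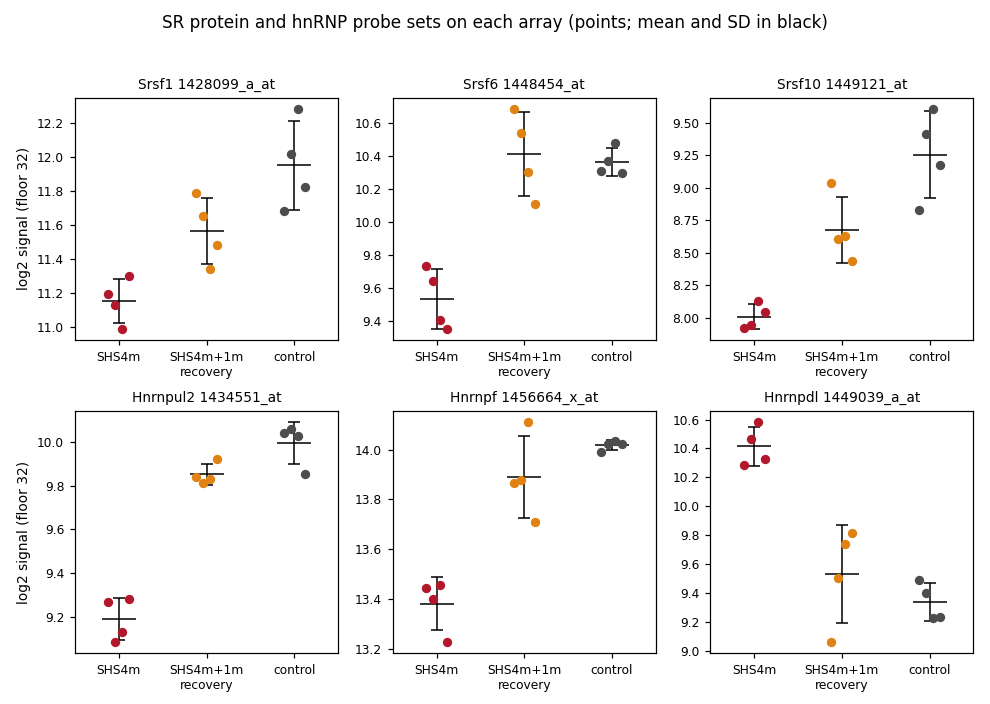
Log2 signal after the floor of 32 (y axis) of 6 probe sets on each array, by group (x axis). Points are single arrays, and the black lines give the mean and SD of 4 arrays. For each gene the probe set with the smallest adjusted p is shown. In the Srsf1, Srsf6, Srsf10, Hnrnpul2 and Hnrnpf panels every SHS4m array lies below every control array, and in the Hnrnpdl panel every SHS4m array lies above them.

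The hnRNPs, which coat newly made RNA and influence its splicing, stability and export, had the most calls of any family. Of 58 probe sets, 12 were called in SHS4m mice, 9 lower (15.5%) and 3 higher (5.17%), beside 2.87% lower and 2.52% higher of all probe sets. By the brightest probe set 6 of 19 genes were called, 4 lower (21.1%) and 2 higher (10.5%), beside 3.74% lower and 3.73% higher of all genes. Centring ended the calls of Hnrnpc, Hnrnpd, Hnrnph1, Hnrnpk and Hnrnpu and that of Hnrnpf 1437099_x_at, as given above.

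Hnrnpul2, a nuclear relative of hnRNP U, had the smallest adjusted p of the 282 probe sets. Probe set 1434551_at read 616, 543, 561 and 622 on the SHS4m arrays, 917, 899, 911 and 968 on the recovery arrays and 1054, 1066, 1044 and 925 on the control arrays. The SHS4m arrays were the lowest 4 of the 12, well apart from the others. The difference was -0.80 (1.75-fold lower, standard error 0.06, adjusted p = 0.000294) in SHS4m mice against controls and 0.66 (1.58-fold higher, standard error 0.06, adjusted p = 0.00121) in recovery mice against SHS4m mice. The other probe set of the gene, the brighter 1415765_at, read 989.9, 1272, 1211 and 1077 on the SHS4m arrays, 1288, 1342, 1433 and 1224 on the recovery arrays and 1234, 1238, 1144 and 1265 on the control arrays. It overlapped between groups (difference -0.11, adjusted p = 0.602), and the pair differed by -0.70 in its change with an adjusted p over all pairs of 0.0518.

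Hnrnpf, which binds runs of guanines, was lower by its brightest probe set (1456664_x_at). It read 11144, 10808, 11240 and 9595 on the SHS4m arrays, 14919, 15063, 17690 and 13414 on the recovery arrays and 16269, 16657, 16799 and 16650 on the control arrays. The highest SHS4m array was below the lowest recovery and control arrays. The difference was -0.64 (1.55-fold lower, standard error 0.08, adjusted p = 0.00239) against controls, and recovery mice were higher than SHS4m mice (0.51, 1.42-fold higher, standard error 0.08, adjusted p = 0.0111). Probe set 1437099_x_at was also lower in SHS4m mice (-0.50, adjusted p = 0.0463). The call of 1437099_x_at in SHS4m mice was lost in 9 of 12 fits with 1 array left out (adjusted p up to 0.115), the exceptions being without SHS4m replicate 68 or recovery replicates 71 and 72. Probe set 1450963_at moved apart from the brightest, with a difference between their changes of 0.86 (adjusted p over all pairs = 0.0364). It read 668, 779.6, 763 and 706 on the SHS4m arrays, 857, 809, 649.9 and 664 on the recovery arrays and 531, 641, 729 and 613 on the control arrays. This pair was no longer called without any 1 of SHS4m replicates 66, 67, 68 and 69, recovery replicate 73 or control replicates 1, 2, 3 and 4 (adjusted p up to 0.0854).

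Hnrnpdl, a relative of the RNA decay regulator Hnrnpd, moved the other way. Its brightest probe set (1424251_a_at) read 6415, 6723, 6591 and 6047 on the SHS4m arrays, 3462, 4353, 5448 and 4017 on the recovery arrays and 4015, 3561, 3129.7 and 2872 on the control arrays. Every SHS4m array was above every array of the other groups. The difference was 0.94 (1.91-fold higher, standard error 0.14, adjusted p = 0.00551) in SHS4m mice and 0.34 (standard error 0.14, adjusted p = 0.315) in recovery mice. Probe set 1449039_a_at read 1247, 1413, 1534 and 1285 on the SHS4m arrays, 534, 726, 856 and 903 on the recovery arrays and 719, 676, 599 and 602 on the control arrays. On it too the SHS4m arrays stood above the rest, with a difference of 1.08 (2.11-fold higher, standard error 0.15, adjusted p = 0.0045) against controls and of -0.88 (1.85-fold lower, standard error 0.15, adjusted p = 0.02) in recovery mice against SHS4m mice. Probe set 1449039_a_at lost its call in recovery against SHS4m mice when any 1 of SHS4m replicates 67 and 68 or recovery replicate 71 was left out (adjusted p up to 0.0566). All 7 probe sets of Hnrnpdl had higher means in SHS4m mice than in controls, from 0.15 to 1.14, the largest in a dim probe set (1428225_s_at) that was not called (adjusted p = 0.19). Hnrnpd itself was higher by 0.55 in its brightest probe set (1425142_a_at, adjusted p = 0.0489). The other 2 probe sets of Hnrnpd were not called and had lower means in SHS4m mice than in controls, down to -0.41. Leaving out 1 array at a time ended the call of 1425142_a_at in SHS4m mice in 10 of 12 fits (adjusted p up to 0.122), all but those without SHS4m replicate 69 or recovery replicate 73.

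The 5 further hnRNP calls in SHS4m mice were smaller falls, with differences from -0.51 to -0.29. Hnrnph1, a close relative of Hnrnpf (1415872_at), read 830.0, 789.8, 718 and 904 on the SHS4m arrays, 1206, 1171, 1088 and 927 on the recovery arrays and 1128, 1134, 1069 and 1295 on the control arrays. Its SHS4m arrays lay below the rest, with a difference of -0.51 (1.43-fold lower, standard error 0.10, adjusted p = 0.0172). Hnrnpu, which organises nuclear RNA on chromatin, was lower by 1423051_at (-0.29, adjusted p = 0.0403) and 1423050_s_at (-0.48, adjusted p = 0.0246), and by the first it was higher in recovery mice than in SHS4m mice (0.47, adjusted p = 0.00895). The call of 1423051_at in SHS4m mice was lost in 8 of 12 fits with 1 array left out (adjusted p up to 0.103), the exceptions being without SHS4m replicates 66 and 67 or recovery replicates 72 and 73. Leaving out any 1 of SHS4m replicates 66 and 69 or control replicates 2, 3 and 4 ended the call of 1423050_s_at in SHS4m mice (adjusted p up to 0.0698). Hnrnpk, which binds runs of cytosines, was lower in 1448176_a_at (-0.33, adjusted p = 0.0154), while its brightest probe set (1460547_a_at) differed by 0.05 (adjusted p = 0.803). Hnrnpc, which binds runs of uridines, was lower in 1460240_a_at (-0.30, adjusted p = 0.0251). Without any 1 of SHS4m replicates 67, 68 and 69 or control replicates 1, 3 and 4, 1460240_a_at was no longer called in SHS4m mice (adjusted p up to 0.0711).

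Hnrnpr, an RNA-binding relative of Syncrip, was lower in both exposed groups by its probe set 1452030_a_at. It read 207, 197, 175 and 169.9 on the SHS4m arrays, 216, 108, 174 and 94.2 on the recovery arrays and 459, 379, 416 and 301 on the control arrays. All 8 exposed arrays lay below all 4 controls. The difference was -1.04 (2.06-fold lower, standard error 0.25, adjusted p = 0.0436) in SHS4m mice and -1.46 (2.75-fold lower, standard error 0.25, adjusted p = 0.0221) in recovery mice. The call of 1452030_a_at in SHS4m mice was lost in 8 of 12 fits with 1 array left out (adjusted p up to 0.109), the exceptions being without recovery replicates 70, 71, 72 and 73. For 1452030_a_at the call in recovery mice was lost without any 1 of recovery replicate 71 or control replicates 1 and 3 (adjusted p up to 0.065). For the brightest of Hnrnpr (1437526_x_at) the groups had differences of -0.28 (adjusted p = 0.472) and -0.26 (adjusted p = 0.606).

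The sequence upstream of the start is shown for Srsf1 and Srsf10, which were lower in SHS4m mice, and for Hnrnpdl, which was higher. Among the genes read here, they are the 2 SR genes and the hnRNP gene with the largest called changes in SHS4m mice. The SR gene Srsf7, which the study lists as lower in SHS4m mice, was not among these genes. Each run holds the 250 bases before the RefSeq start in mouse build GRCm38.p6, read on the strand of the gene. The places are chr11:88047123-88047372 on the plus strand for Srsf1, chr4:135855821-135856070 on the plus strand for Srsf10 and chr5:100039223-100039472 on the minus strand for Hnrnpdl. Capitals mark the GC box GGGCGG and the CCAAT box CCAAT on either strand, which do not overlap each other here.
Srsf1: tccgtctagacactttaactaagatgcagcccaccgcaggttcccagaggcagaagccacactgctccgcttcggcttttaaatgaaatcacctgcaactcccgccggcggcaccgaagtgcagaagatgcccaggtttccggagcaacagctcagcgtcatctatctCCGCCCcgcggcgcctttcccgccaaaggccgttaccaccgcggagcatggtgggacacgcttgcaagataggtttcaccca
Srsf10: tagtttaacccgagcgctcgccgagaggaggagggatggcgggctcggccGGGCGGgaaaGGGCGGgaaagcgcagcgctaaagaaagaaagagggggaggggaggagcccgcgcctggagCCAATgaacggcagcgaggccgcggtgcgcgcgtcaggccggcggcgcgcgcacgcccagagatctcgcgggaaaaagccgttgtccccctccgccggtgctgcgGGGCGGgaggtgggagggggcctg
Hnrnpdl: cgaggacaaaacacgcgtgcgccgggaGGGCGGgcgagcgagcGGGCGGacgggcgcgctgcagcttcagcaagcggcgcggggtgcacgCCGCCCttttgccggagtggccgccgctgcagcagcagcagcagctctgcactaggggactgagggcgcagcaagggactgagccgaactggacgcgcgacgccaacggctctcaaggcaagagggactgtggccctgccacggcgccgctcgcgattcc
The GC box was found 1, 3 and 3 times in these runs and the CCAAT box 0, 1 and 0 times. The G and C content was 58.8% upstream of Srsf1 and 72% upstream of each of the other genes. Over the 32851 RefSeq starts, 32.7% of such stretches held the GC box and 33.8% the CCAAT box, beside 52.7% and 45.5% of the 110 starts of the 86 splicing genes that had one. A match is a run of letters and not evidence that a factor binds.

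In the SF3 and U2AF complexes, which define the branch point and the end of the intron, all 4 calls in SHS4m mice were rises. They were 1 probe set of Sf3a1, 2 of Sf3b1 and 1 of Sf3b3, out of 32 (12.5%), beside 2.52% of all probe sets called higher. The median difference over the 32 was -0.05. Centring ended the 2 calls of Sf3b1, as given above.

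Sf3b1, the protein that clamps the branch point and the largest subunit of SF3b, read 3793, 3895, 3591 and 3463 on the SHS4m arrays, 3458, 3483, 3387 and 3375 on the recovery arrays and 3023, 3412, 2952 and 2789 on the control arrays on its brightest probe set (1449138_at). The SHS4m arrays were above all controls by a small margin, with a difference of 0.28 (1.21-fold higher, standard error 0.06, adjusted p = 0.0252). Probe set 1440818_s_at was higher by 0.39 (adjusted p = 0.0459), and 1418561_at had a difference of -0.51 (adjusted p = 0.102). The call of 1449138_at in SHS4m mice was lost without any 1 of SHS4m replicates 66 and 67 or control replicates 1, 3 and 4 (adjusted p up to 0.0704). The call of 1440818_s_at in SHS4m mice was lost in 9 of 12 fits with 1 array left out (adjusted p up to 0.112), the exceptions being without recovery replicates 71 and 72 or control replicate 2. Sf3b3, another SF3b subunit (1415985_at), read 842, 800.1, 839 and 843 on the SHS4m arrays, 805, 818, 846 and 769 on the recovery arrays and 644, 749, 699 and 584 on the control arrays. Both exposed groups lay above the controls, with differences of 0.32 (1.25-fold higher, standard error 0.07, adjusted p = 0.0254) in SHS4m mice and 0.28 (standard error 0.07, adjusted p = 0.0744) in recovery mice. Without any 1 of SHS4m replicates 66, 68 and 69 or control replicate 1, 1415985_at was no longer called in SHS4m mice (adjusted p up to 0.0668).

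Sf3a1, a subunit of SF3a, gave the largest rise of the 282 probe sets that was called, and its probe sets disagreed. Probe set 1419087_s_at read 127, 131, 102 and 109 on the SHS4m arrays, 93.4, 97.6, 122 and 50.3 on the recovery arrays and 44.0, 44.9, 56.7 and 44.9 on the control arrays. The SHS4m arrays were more than 1.5 times the highest control, with a difference of 1.30 (2.46-fold higher, standard error 0.24, adjusted p = 0.0136). The brightest of the gene (1449333_at) read 471, 502, 488 and 619 on the SHS4m arrays, 657, 703, 716 and 631 on the recovery arrays and 544, 654, 735 and 648 on the control arrays. There the SHS4m mean was the lower one, with a difference of -0.31 (adjusted p = 0.141). The 2 probe sets moved apart by 1.61 (adjusted p over all pairs = 0.0117), a call that no omission of 1 array removed (adjusted p at most 0.0461). The dimmer one lay close to the floor of 32 in controls, at 44.0 to 56.7.

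Sf3b2, a subunit that contacts RNA next to the branch point, had no called probe set among its 7. Its brightest (1438637_x_at) had higher signals on all SHS4m arrays than on all controls and its 1429362_a_at lower ones. They read 2959.8, 3505, 3656 and 3045 on the SHS4m arrays, 3141, 2579.8, 3023 and 3605 on the recovery arrays and 2401, 2683, 2461 and 2699 on the control arrays for the first. The second read 1791, 1327, 1672 and 1209 on the SHS4m arrays, 2002, 1334, 1435 and 1546 on the recovery arrays and 2161, 2199, 2114 and 2042 on the control arrays. The differences in SHS4m mice were 0.36 (adjusted p = 0.0876) and -0.52 (adjusted p = 0.0771), and the pair moved apart by -0.88 (adjusted p over all pairs = 0.0421). This pair was no longer called without any 1 of SHS4m replicates 67, 68 and 69, recovery replicates 71 and 73 or control replicates 1, 2, 3 and 4 (adjusted p up to 0.103).

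U2af1 and U2af2, the subunits of U2AF that bind the last bases of the intron and the pyrimidine tract before them, had 1 probe set each. U2af1 (1422509_at) read 3683, 4479, 4678 and 3805 on the SHS4m arrays, 4184, 4190.1, 3158 and 3793 on the recovery arrays and 3639, 3709.5, 5209 and 4820.4 on the control arrays. U2af2 (1417260_at) read 939, 785, 800.0 and 902 on the SHS4m arrays, 994, 895, 1101 and 991 on the recovery arrays and 917, 921, 960.1 and 1216 on the control arrays. All 3 groups overlapped for both genes, with differences in SHS4m mice of -0.05 (standard error 0.15, adjusted p = 0.975) and -0.22 (standard error 0.10, adjusted p = 0.311).

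The Snrp genes encode the Sm core and other proteins of the spliceosomal particles. Of their 18 probe sets, 3 were called in SHS4m mice, all lower (16.7%, beside 2.87% of all probe sets). With every array centred on its own median signal, all 3 calls were lost (adjusted p = 0.0713 to 0.167). Snrpg, a protein of the Sm ring, was lower by its probe set 1448357_at, which read 733, 766, 866 and 811 on the SHS4m arrays, 1097, 928, 859.8 and 1055 on the recovery arrays and 1198, 1192, 1261 and 989.5 on the control arrays. The SHS4m arrays lay below all controls, with a difference of -0.54 (1.46-fold lower, standard error 0.10, adjusted p = 0.0129), while its brighter probe set 1448358_s_at differed by -0.10 (adjusted p = 0.515). Snrpd3, another protein of the ring, was lower in 1422884_at (-0.41, adjusted p = 0.0228), which read 3956, 4717, 4464 and 4213 on the SHS4m arrays, 4724, 5378, 4220.3 and 4486 on the recovery arrays and 5859.6, 5369.6, 6334 and 5504 on the control arrays. Snrpb2, a protein of the U2 particle, was lower in 1452422_a_at (-0.63, adjusted p = 0.0268), which read 649, 881, 873 and 690.1 on the SHS4m arrays, 1334, 1046, 924 and 1194 on the recovery arrays and 1208, 1181, 1273 and 1073 on the control arrays. In both the SHS4m arrays lay below all controls. The other 2 probe sets of Snrpd3 were not called and had higher means in SHS4m mice than in controls, up to 0.38. The brightest of Snrpb2 (1426613_a_at) differed by -0.25 (adjusted p = 0.198), and 1 probe set of that gene had a higher mean (0.13). Probe set 1422884_at lost its call in SHS4m mice when any 1 of SHS4m replicates 66 and 69 or control replicates 1 and 3 was left out (adjusted p up to 0.0618). For 1452422_a_at the call in SHS4m mice was lost without any 1 of SHS4m replicates 66 and 69 or control replicates 1, 2 and 3 (adjusted p up to 0.0756). No Snrp probe set was called in either comparison of the recovery mice.

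Of the 32 probe sets of Prpf genes, 1 was called in SHS4m mice, and it was lower (3.12%, beside 2.87% of all probe sets). Prpf6, which bridges the particles of the tri-snRNP, was lower in 1454789_x_at, which read 791, 776, 688 and 733 on the SHS4m arrays, 870.3, 906, 894 and 759 on the recovery arrays and 1034, 1174, 943 and 933 on the control arrays. The SHS4m arrays lay below all controls, with a difference of -0.45 (1.36-fold lower, standard error 0.09, adjusted p = 0.0163). By the brightest probe set none of the 12 genes was called, and 9 of them had a lower mean. Prpf19, the ubiquitin ligase of a complex that activates the spliceosome, was higher in recovery mice than in SHS4m mice by 0.21 in 1419839_x_at (adjusted p = 0.0492). Of the 12 fits without 1 array, the call of 1419839_x_at in recovery against SHS4m mice was kept in those without SHS4m replicate 67 and lost in the other 11 (adjusted p up to 0.12).

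The Rbm genes, the largest family here, had 5 of 95 probe sets called in SHS4m mice, 4 lower (4.21%) and 1 higher (1.05%), beside the 2.87% lower and 2.52% higher of all probe sets. Rbm6, a regulator of exon choice, was called in both exposed groups. Probe set 1417213_a_at read 209, 205, 159 and 163 on the SHS4m arrays, 203, 209.8, 179 and 149 on the recovery arrays and 347, 338, 364 and 381 on the control arrays. All exposed arrays lay well below all controls, with differences of -0.97 (1.96-fold lower, standard error 0.12, adjusted p = 0.0029) in SHS4m mice and -0.96 (1.94-fold lower, standard error 0.12, adjusted p = 0.00841) in recovery mice. Both calls were kept without any single array (adjusted p at most 0.029). Its brightest, 1452466_a_at, was lower in SHS4m mice (-0.43, adjusted p = 0.0434), and its difference in recovery mice was -0.39 (adjusted p = 0.103). Leaving out 1 array at a time ended the call of 1452466_a_at in SHS4m mice in 10 of 12 fits (adjusted p up to 0.103), all but those without recovery replicates 70 and 72. The third, 1440223_at, had differences of 0.00 and 0.05.

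Rbm42, which binds hnRNP K, was lower in both exposed groups by its brightest probe set (1415739_at). It read 1154, 999, 1184 and 1070.0 on the SHS4m arrays, 1095, 968, 1031 and 967 on the recovery arrays and 1348, 1322, 1372 and 1272 on the control arrays. The controls were above all 8 exposed arrays, with differences of -0.27 (1.21-fold lower, standard error 0.06, adjusted p = 0.0286) in SHS4m mice and -0.39 (1.31-fold lower, standard error 0.06, adjusted p = 0.0145) in recovery mice. Without any 1 of SHS4m replicates 67 and 69 or control replicates 1, 2 and 3, 1415739_at was no longer called in SHS4m mice (adjusted p up to 0.0786). The other 2 probe sets of Rbm42 were not called and went the other way. Their means lay above the controls by up to 0.10 at the end of the exposure and by up to 0.30 after the recovery month. Averaged over its 3 probe sets, the gene differed from controls by -0.04 (SHS4m) and -0.03 (recovery) and was not called. Rbm15b, an adaptor of the complex that methylates adenosines in RNA (1454871_at), read 113, 115, 95.1 and 114 on the SHS4m arrays, 162, 138, 171 and 138 on the recovery arrays and 179, 199.8, 145 and 211 on the control arrays. The SHS4m arrays were the lowest, with a difference of -0.74 (1.67-fold lower, standard error 0.13, adjusted p = 0.00989), and the brightest probe set of the gene (1454798_at) differed by -0.18 (adjusted p = 0.716). The third probe set of Rbm15b was not called and went the other way. Its mean lay above the controls by 0.59 in SHS4m mice and by 0.60 in recovery mice. Its relative Rbm15 was higher in recovery mice than in SHS4m mice by 0.50 in its brightest probe set (1434514_at, adjusted p = 0.044). Of the 12 fits without 1 array, the call of 1434514_at in recovery against SHS4m mice was kept in those without SHS4m replicate 69 and lost in the other 11 (adjusted p up to 0.114).

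Rbm39, a splicing factor related to U2AF, was read by 12 probe sets, the most of any of the genes. One, 1438420_at, was called in SHS4m mice. It read 749, 945, 1021 and 642 on the SHS4m arrays, 573, 549, 507 and 525 on the recovery arrays and 547, 611, 506 and 469 on the control arrays. The SHS4m arrays were all above the controls and the recovery arrays, with a difference of 0.64 (1.56-fold higher, standard error 0.14, adjusted p = 0.0303). For 1438420_at the call in SHS4m mice was lost without any 1 of SHS4m replicates 66, 67 and 68 or control replicates 1, 3 and 4 (adjusted p up to 0.0821). Of the other 11, 9 had a higher and 2 a lower mean in SHS4m mice, with differences from -0.39 to 1.01, and the brightest (1426671_a_at) differed by -0.11 (adjusted p = 0.455). In recovery mice against SHS4m mice 11 of the 12 had a negative difference, and none was called.

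Wbp11, a nuclear protein of the spliceosome that binds WW domains, carried the largest called change of the 282 probe sets and showed it on 1 of its 3. Probe set 1430987_s_at read 567, 616, 575 and 313 on the SHS4m arrays, 293, 224, 145 and 104 on the recovery arrays and 784, 759, 775 and 703 on the control arrays. All recovery arrays lay below all SHS4m arrays, and all SHS4m arrays below all controls. The difference was -2.09 (4.26-fold lower, standard error 0.32, adjusted p = 0.0144) in recovery mice against controls, a fall to 0.235 of the control level, and -0.59 (standard error 0.32, adjusted p = 0.398) in SHS4m mice. Recovery mice were also below SHS4m mice (-1.50, 2.83-fold lower, standard error 0.32, adjusted p = 0.0419). The first call was kept without any single array (adjusted p at most 0.0429), and was lost with only the 8 arrays of the 2 groups fitted (adjusted p = 0.0563). The call of 1430987_s_at in recovery against SHS4m mice was lost in 10 of 12 fits with 1 array left out (adjusted p up to 0.108), the exceptions being without SHS4m replicate 69 or recovery replicate 70.

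The brightest probe set of Wbp11 (1415799_at) did not follow. It read 1970.2, 1895, 2085 and 1845 on the SHS4m arrays, 1838, 1968, 1611 and 1923 on the recovery arrays and 1760.3, 1727, 1539 and 1825 on the control arrays. The recovery arrays overlapped the controls, with a difference of 0.10 (standard error 0.07, adjusted p = 0.675), and the SHS4m arrays were slightly above them (0.19, standard error 0.07, adjusted p = 0.213). Within arrays the 2 probe sets moved apart by -2.19 in recovery mice (standard error 0.30, adjusted p over all pairs = 0.0152), and by -1.41 in recovery against SHS4m mice (adjusted p over all pairs = 0.0882). This pair was no longer called without any 1 of control replicates 1, 2 and 3 (adjusted p up to 0.0617). The third, 1447401_at, was at the floor on all arrays but that of control replicate 3. A probe set whose name ends in _s_at holds probes that can match more than 1 transcript, and which transcript of Wbp11 each probe set reads was not analysed here.

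**Figure D3:**
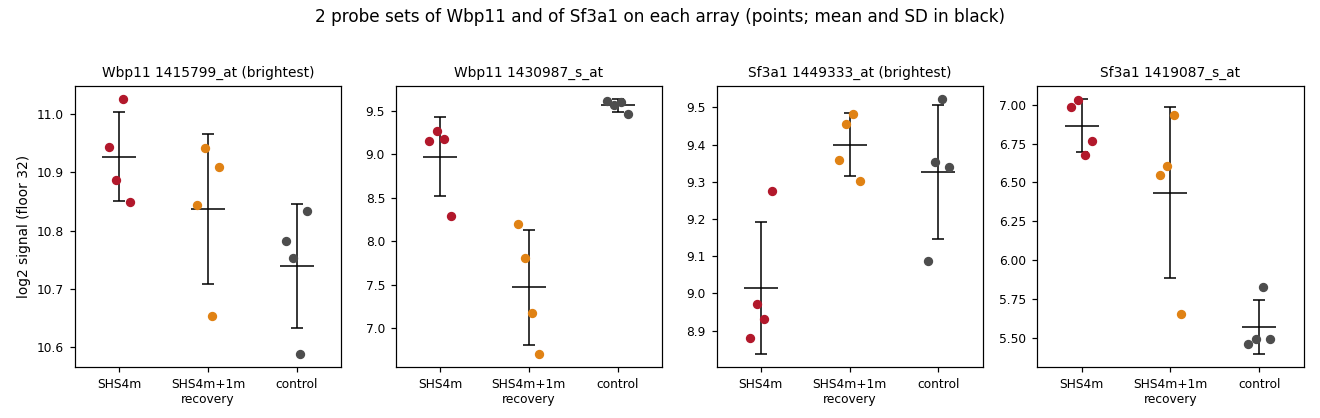
Log2 signal after the floor of 32 (y axis, a separate scale in each panel) of 2 probe sets each of Wbp11 and Sf3a1 on each array, by group (x axis). Points are single arrays, and the black lines give the mean and SD of 4 arrays. For Wbp11 1430987_s_at the recovery arrays read 104 to 293 and the controls 703 to 784, while for 1415799_at these groups overlap; for Sf3a1 only 1419087_s_at separates the SHS4m arrays from the controls.

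One month after the exposure, few probe sets of splicing genes were called against controls. In recovery mice 5 of 282 probe sets were called, all lower (1.77%), where 0.877% of all probe sets were called higher and 1.19% lower. They were the probe sets of Wbp11, Hnrnpr, Rbm6 and Rbm42 described above and 1440937_at of Rbm41, a protein with an RNA recognition motif. It read 57.5, 81.6, 51.0 and 72.4 on the SHS4m arrays, 60.1, 41.1, 11.4 and 53.2 on the recovery arrays and 88.4, 111, 100.1 and 82.1 on the control arrays. The recovery arrays lay below the controls, with a difference of -1.07 (2.09-fold lower, standard error 0.21, adjusted p = 0.0385), and recovery replicate 72 was below the floor. Of the 12 fits without 1 array, the call of 1440937_at in recovery mice was kept in those without SHS4m replicates 67 and 68 or recovery replicate 70 and lost in the other 9 (adjusted p up to 0.102). The brightest probe set of Rbm41 (1456027_at) differed by -0.06 in recovery mice against controls and was not called. By the brightest probe set 1 gene of 100 was called, Rbm42, where 1.37% of all genes were called higher and 1.14% lower. The median difference over the 100 genes was -0.05, beside 0 over all genes. At the study's threshold 7 probe sets passed, 1 higher and 6 lower (0.395% and 0.979% over all probe sets). Without control replicate 1, control replicate 3 or recovery replicate 71, 3 probe sets were called, and without SHS4m replicate 67, 8. By the brightest probe set, 2 or 3 genes were called without control replicate 2, SHS4m replicates 67 and 69 or recovery replicate 70. Centring ended the calls of Rbm42 1415739_at and Rbm41 1440937_at (adjusted p = 0.0741 to 0.126). With only the 8 arrays of the recovery and control groups fitted, 2 of the 5 calls were kept, and those of Wbp11 1430987_s_at, Rbm41 1440937_at and Hnrnpr 1452030_a_at (adjusted p = 0.0563 to 0.0977) were lost. The same 4 control arrays served this comparison and that of SHS4m mice.

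Set directly against SHS4m mice, recovery mice had 9 probe sets called, 7 higher (2.48%) and 2 lower (0.709%), where 1.32% of all probe sets were called higher and 1.22% lower. The one not yet described was 1455855_x_at of Hnrnpab, an hnRNP with several probe sets here. It read 9837, 10804, 11233 and 9221 on the recovery arrays, 7463, 8262, 7745 and 7536 on the SHS4m arrays and 8516, 8567, 9849 and 9166 on the control arrays, with a difference of 0.40 (1.32-fold higher, standard error 0.07, adjusted p = 0.02). Without any 1 of SHS4m replicates 66, 68 and 69 or recovery replicate 71, 1455855_x_at was no longer called in recovery against SHS4m mice (adjusted p up to 0.0588). By the brightest probe set 3 genes were called, Hnrnpf, Hnrnpu and Rbm15, all higher, beside 2.01% of all genes higher and 1.68% lower. At the study's threshold 4 probe sets passed, 2 in each direction (0.777% higher and 0.926% lower over all probe sets). Without SHS4m replicate 68 or recovery replicate 71, 5 and 4 probe sets were called, and without SHS4m replicate 69, 6 genes. Centring ended the calls of Prpf19 1419839_x_at and Hnrnpab 1455855_x_at (adjusted p = 0.0593 to 0.411). With only the 8 arrays of these groups fitted, 1 of the 9 calls was kept, that of Hnrnpul2 1434551_at, and 8 were lost, those of Prpf19 1419839_x_at, Hnrnpu 1423051_at, Wbp11 1430987_s_at, Rbm15 1434514_at, Srsf6 1448454_at, Hnrnpdl 1449039_a_at, Hnrnpab 1455855_x_at and Hnrnpf 1456664_x_at (adjusted p = 0.0515 to 0.142). The SHS4m arrays served this comparison and that against controls.

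In 23 of the 100 genes at least 1 probe set was called in SHS4m mice, 17 with a lower and 6 with a higher one, beside 10% of all genes. All 23 were among the 71 genes with 2 or more probe sets, which makes 32.4% of these, beside 14.5% of all 9010 genes with 2 or more. Of the 23, none had every probe set called, beside 8.05% of the 1304 such genes of the whole array, and 6 had 2 or more called (26.1%, beside 22.9%). A probe set that was not the brightest carried the only call in 11 (47.8%, beside 35.5%), and 17 had another probe set with a mean difference of the opposite sign (73.9%, beside 40.9%). No gene was called in both directions, beside 13 of the 1304. A gene with more probe sets has more chances of a call and of opposite signs, and fewer chances that all its probe sets are called or share 1 sign. Beside their brightest, the 71 genes had 182 probe sets and the 9010 genes 16752. This was not adjusted for, here or in the next shares. All probe sets of a gene had 1 sign of difference in 24 of the 71 genes (33.8%), beside 52% of all genes with 2 or more.

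The pair test asked whether a dimmer probe set and the brightest of its gene changed unequally within arrays, over the 16752 pairs of the array. Among the 182 pairs of splicing genes 4 were called in SHS4m mice (2.2%), those of Sf3a1, Hnrnpf, Sf3b2 and Srsf3, where 1.11% of all pairs were called. The count was 1 or 2 without any 1 of SHS4m replicates 66, 67, 68 and 69, recovery replicate 73 or control replicates 1, 2, 3 and 4. In recovery mice against controls 1 pair was called, that of Wbp11 (0.549%), where 0.752% of all pairs were, and 2 were called without recovery replicate 70. In recovery against SHS4m mice none was called by limma, with 39 pairs at an unadjusted p under 0.05, where 0.304% of all pairs were called. The pairs next in order were not called. In SHS4m mice they were those of Hnrnpul2, given above, Rbm39 (0.75, adjusted p = 0.0594), Sf3b1 (-0.79, adjusted p = 0.0603) and Snrpd3 (0.71, adjusted p = 0.0603). In recovery mice against controls they began with Prpf39 (-0.998, adjusted p = 0.072), Sf3a3 (-1.19, adjusted p = 0.0828) and Rbm25 (0.64, adjusted p = 0.083), followed by pairs of Sf3b2, Hnrnpu and Snrpd3. In recovery against SHS4m mice those after Wbp11 were Snrpb2 (0.60, adjusted p = 0.0909), Hnrnpf (-0.71, adjusted p = 0.0916) and Prpf38b (-1.59, adjusted p = 0.0926), followed by pairs of Snrpd3, Rbm5, Rbm39 and Srsf6. The test does not say which of the 2 probe sets follows the gene's RNA.

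**Figure D4:**
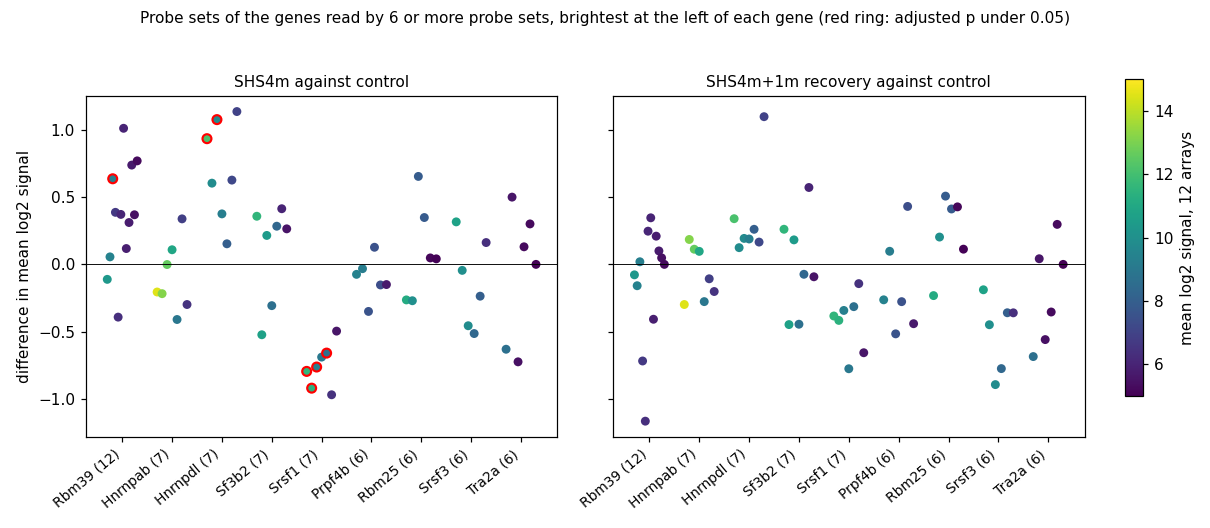
Difference in mean log2 signal (y axis) of every probe set of the 9 genes read by 6 or more probe sets (x axis, number in brackets), in SHS4m mice and in recovery mice against controls. Within a gene the brightest probe set is at the left, colour gives the mean log2 signal over 12 arrays, and red rings mark calls, 4 for Srsf1, 2 for Hnrnpdl and 1 for Rbm39 in SHS4m mice and none in recovery mice.

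Across the 9 genes read by 6 or more probe sets, all probe sets had 1 direction in SHS4m mice only for Srsf1 and Hnrnpdl. Hnrnpab ran from -0.41 to 0.34 over 7 probe sets, Sf3b2 from -0.52 to 0.41 over 7, Srsf3 from -0.51 to 0.32 over 6 and Tra2a from -0.73 to 0.50 over 6. Prpf4b, a kinase of spliceosome proteins, ran from -0.35 to 0.13 over 6 and Rbm25, a regulator of splice site choice, from -0.27 to 0.65 over 6. In recovery mice the 6 probe sets of Srsf3 all had lower means than in controls, from -0.89 to -0.19, and none was called.

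Among 137 genes of the other pathway lists, 12 were called in SHS4m mice, 4 higher (2.92%) and 8 lower (5.84%). Of all genes, 3.73% were called higher and 3.74% lower. The 137 include Prpf4b, which also belongs to the splicing genes above and was not called. Of 54 other spliceosome proteins read, 2 were called higher and 2 lower, of 15 spliceosomal helicases 2 higher and 1 lower, of 37 other splicing regulators 4 lower, and of 12 exon junction and SMN complex proteins 1 lower, with none of 10 LSm ring proteins and none of 10 SR protein kinases, each gene read by its brightest probe set. Elavl1, which stabilises RNAs with AU-rich elements, was lower (-0.65, adjusted p = 0.00117), as was the helicase Ddx17 (-1.11, adjusted p = 0.00176), and Ctnnbl1, a protein bound to the activated spliceosome, was higher by 0.47 (adjusted p = 0.00389). In recovery mice Pcbp2, which binds runs of cytosines, was higher by 0.35 (adjusted p = 0.0296), Strap of the SMN complex by 0.32 (adjusted p = 0.0332) and Txnl4a of the U5 particle by 0.39 (adjusted p = 0.0406). Against SHS4m mice recovery mice were higher in Ddx17 by 1.02 (adjusted p = 0.00524), in the RNA-binding protein Rbmxl1 by 0.70 (adjusted p = 0.00566) and in Elavl1 by 0.43 (adjusted p = 0.0125). Cirbp, the cold-inducible RNA-binding protein, had a mean log2 signal of 10.19 in SHS4m mice, 8.74 in recovery mice and 8.59 in controls. It was higher by 1.60 in SHS4m mice (adjusted p = 0.0209) and lower in recovery mice than in SHS4m mice (-1.46, adjusted p = 0.0494).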

How the data were processed

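RNA from the livers of 12 mice, 4 in each of the SHS4m, SHS4m+1m recovery and control groups, had been hybridised to 1 Affymetrix array each. The deposited values are intensities on a linear scale, made by the authors with Affymetrix Expression Console and scaled so that the mean of each array, trimmed by 2% at each end, was 500. The sources used here do not name the method that summarised probes into probe sets, and the study's methods name the Bioconductor package ArrayTools for its tests. Groups were taken from the labels, and all 12 columns were matched to a sample, with 0 columns left over. Of the probe sets, 9160 had no gene name in the platform annotation and 932 named several genes, and neither kind was assigned to a gene.

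Intensities below a floor of 32 were raised to 32 and log2 was taken. One linear model of the 3 groups was fitted with lmFit and eBayes of limma 3.58.1 in R 4.3.3, with 9 residual degrees of freedom, over 45037 probe sets without the array's control probe sets. P-values were two-sided and adjusted over all of these by the Benjamini-Hochberg method. The same model was fitted to the within-array difference between each dimmer probe set and the brightest of its gene, over 16752 pairs. The brightest probe set was the one with the highest mean log2 signal over all 12 arrays. Named were, in each comparison, the 8 called probe sets with the largest rise and the 8 with the largest fall and the 8 pairs with the smallest adjusted p, all probe sets of Tra2a, Tra2b, U2af1, U2af2 and Wbp11, the brightest probe set of each family, genes read by 6 or more probe sets by their range, and the 3 called genes with the smallest adjusted p of the other pathway lists. Other called probe sets, among them those of Hnrnpc, Hnrnph1, Hnrnpk, Prpf6, Rbm15b, Snrpb2, Snrpd3 and Snrpg, and Cirbp were described after their values were seen. The members and gene lists were chosen with earlier results of these data known. The fitting steps were tested on simulated data with known changes. Promoter sequences are from RefSeq (GRCm38.p6).

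Alternatives were a floor of 64, a floor at the 25th percentile of each array, a pseudocount of 32 in place of the floor, centring of each array on its median, quantile normalisation, a filter that kept probe sets above 100 on at least 4 arrays, an intensity trend, array weights, updated gene symbols, fits of the 8 arrays compared, the mean of a gene's probe sets, the study's threshold, and omission of each array. The number of arrays, 4 a group, limits the precision.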

Additional observations from a re-analysis of the deposited data

Results flagged for a closer look

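In groups of 4 arrays, an array was singled out when its gap to the nearest other array was more than Dixon's critical share of the group's range. Of the 132 groups of 44 named probe sets examined, 12 held such an array, where chance gives about 1 group in 20. No cause was tested for any of them.

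In probe sets that carried a result, Sf3b3 (1415985_at) read 800.1 in SHS4m replicate 67 and 839 to 843 in the other SHS4m mice. Sf3a1 (1419087_s_at) read 56.7 in control replicate 3 and 44.0 to 45.0 in the other controls. Wbp11 (1430987_s_at) read 313 in SHS4m replicate 69 and 567 to 616 in the other SHS4m mice. Hnrnpul2 (1434551_at) read 925 in control replicate 4 and 1044 to 1066 in the other controls. Srsf1 (1453722_s_at) read 397 in SHS4m replicate 67 and 514 to 539 in the others. Hnrnpab (1426114_at) read 19267 in SHS4m replicate 67 and 24055 to 24273 in the others. U2af2 (1417260_at) read 1216 in control replicate 4 and 917 to 960 in the others.

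The remaining 5 were dim probe sets, most of them near the floor of 32. Tra2a read 36.6 in control replicate 1 on 1439043_at and 67.3 in recovery replicate 72 on 1455933_at. Tra2b read 121 in recovery replicate 72 on 1441466_at and 72.6 in recovery replicate 71 on 1446496_at. Wbp11 read 34.2 in control replicate 3 on 1447401_at.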

How the results depend on the processing

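No paired analysis was possible because the groups share no replicate numbers. No called probe set or pair changed direction under any alternative. By the mean of all probe sets of a gene, the sign of 3 genes called by their brightest probe set was turned, with differences of 0.09 for Snrpd3 and -0.02 for Hnrnpd in SHS4m mice against controls (-0.41 and 0.55 by the brightest) and of -0.02 for Hnrnpu in recovery against SHS4m mice (0.47 by the brightest). By that mean Wbp11 was called lower in recovery mice against controls (-0.67, adjusted p = 0.0165, beside 0.10 by the brightest). The median over the 100 genes in recovery mice against controls was 0.03 with centred arrays, beside 0.08 over all genes. The counts of calls moved, and the cause was not tested. In SHS4m mice against controls, the 31 probe sets called became 16 with centred arrays, 17 with a floor at the 25th percentile, 19 with a pseudocount and 8 at the study's threshold, and 17 to 33 without 1 array. The 12 genes became 4 with centred arrays, with the 25th percentile floor and with the pseudocount, 7 with only the 8 arrays compared, and 5 to 12 without 1 array. The 4 pairs became 1 with the 25th percentile floor, 21 with a floor of 64, 2 with the pseudocount, 15 with the filter on dim probe sets, 8 with array weights and 2 with the 8 arrays, and 1 to 6 without 1 array. In recovery mice against controls, the 5 probe sets became 3 with the 25th percentile floor, the pseudocount or the 8 arrays and 10 with the filter, and 3 to 8 without 1 array. The 1 gene became 0 with the 25th percentile floor or the pseudocount and 3 with the filter or the mean of a gene's probe sets, and 1 to 3 without 1 array. The 1 pair became 7 with the floor of 64 or the filter and 0 with the 8 arrays, and 0 to 2 without 1 array. In recovery against SHS4m mice, the 9 probe sets became 4 with the 25th percentile floor, the pseudocount or the study's threshold, 16 with the filter and 1 with the 8 arrays, and 4 to 11 without 1 array. The 3 genes became 0 with the 25th percentile floor, the pseudocount or the 8 arrays and 7 with the filter, and 2 to 6 without 1 array. The count of 0 pairs became 4 with the floor of 64. The filter and the 8-array fits also change how many probe sets or arrays are tested. Among single probe sets and pairs, 67 alternatives other than omissions ended a call and 25 added one, and omissions of 1 array ended 124 and added 6. Values near the floor carry little information on differences.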
